A study of Mus musculus with 30 samples.

Results

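On the ketogenic diet, the livers of mice without PPARα and those of mice without CREB3L3 were compared with each other directly, rather than each with wild type. The comparison used 7 of the 30 livers of the series, 3 PPARα-/- and 4 CREB3L3-/-, and covered every array probe set that carries 1 gene symbol, which is 21218 of 35556 probe sets and 18820 genes. Mice of 4 genotypes (wild type, PPARα-/-, CREB3L3-/- and the combined PPARα/CREB3L3-/- knockout) were either given a ketogenic diet for 4 days with free access or fasted for 16 h, and RNA of each liver was hybridised to 1 Affymetrix Mouse Gene 1.1 ST array. All were males of about 8 weeks. The PPARα-/- mice carried the Pparatm1Gonz allele and had been backcrossed to C57BL/6J, the CREB3L3-/- mice had been backcrossed to C57BL/6, and the 2 lines were bred together to give the combined knockout. Neither deletion is restricted to the liver, so a difference between livers includes what the loss of the factor did elsewhere in the body, and neither group received a standard diet. Each liver came from a separate mouse. Values are RMA intensities on the log2 scale, on which 1 unit is a 2-fold difference, and a difference is given as PPARα-/- minus CREB3L3-/-, so that a negative value means a higher level in CREB3L3-/- livers. Errors are standard errors (SE) from limma's moderated linear model over all 30 arrays, adjusted p values were corrected by Benjamini-Hochberg across the whole array, and a gene was called higher or lower where its unadjusted P was under 0.001 and the fold change was beyond 1.2. The model estimates 1 spread per gene for all groups, so an SE is not the spread of the 7 compared livers alone.

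PPARα is a nuclear receptor that is activated by fatty acids and switches on genes of fatty acid transport, β-oxidation and ketone body synthesis in the liver. CREB3L3, also called CREBH, is a transcription factor made almost exclusively in liver and small intestine. It is held in the membrane of the endoplasmic reticulum and released by proteolysis in the Golgi, and apolipoprotein genes are among its best-known targets. A ketogenic diet supplies nearly all energy as fat, so the liver must take up, oxidise and re-export large amounts of fatty acids, and both factors are active in that state.

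The deleted genes were examined first. Creb3l3 read 9.95, 9.77 and 9.49 in the 3 PPARα-/- livers, against 4.43, 4.30, 4.29 and 4.44 in the 4 CREB3L3-/- livers, a difference of 5.37 (SE 0.15, adjusted p = 7.7e-19). The CREB3L3-/- values lay near the median of all probe sets on these arrays (4.22 to 4.38), a level at which signal is hard to tell from background. Ppara read 7.95, 7.69 and 7.22 in PPARα-/- livers and 8.99, 8.89, 8.01 and 8.67 in CREB3L3-/- livers, and its difference of -1.02 (SE 0.29, adjusted p = 0.0086) did not pass the threshold, although the groups did not overlap. The Pparatm1Gonz allele removes only part of the gene, so that remaining signal does not check the genotype. Wild-type livers on the diet read 10.54, 10.54, 10.51 and 10.37 for Ppara, above both knockouts, and the differences from wild type were -2.87 in PPARα-/- and -1.85 in CREB3L3-/- livers, both called.

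Correlations between arrays of 1 group lay between 0.978 and 0.990. CREB3L3-/- liver 1 had the lowest correlation with its own group among the 7 livers (0.983), and in 2729 of the 4268 called genes (63.9%) it was the CREB3L3-/- liver nearest to the PPARα-/- mean. Without it, 4945 probe sets were called instead of 4669. Of the 255 named values, 210 were larger and 45 smaller in size without that liver. Of the 219 that were called, 2 lost their call and none changed sign. Values that were not called could change sign, as that of Acat1 did (-0.007 to 0.031). Where a list is said to hold no call in 1 direction, limma at an unadjusted P under 0.05 found between 0 and 3 of its members in that direction. The spread between livers was unequal. The mean over the cytochrome P450 list had an SD of 0.63 in CREB3L3-/- and 0.026 in PPARα-/- livers. For the urea cycle and amino acid list it was 0.46 and 0.028, but for cholesterol synthesis 0.19 and 0.69. The shared SE can thus understate the spread of the more variable group.

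In all, 4669 of the 21218 probe sets differed between the groups, 22.0% of those tested, of which 1946 (9.17%) were higher and 2723 (12.8%) were lower in PPARα-/- livers. Taken as 1 probe set per gene (the brightest), 1766 genes were higher (9.38%) and 2502 lower (13.3%). Values of the 2 groups did not overlap in 7164 genes (38.1%), and the median difference over all genes was 0.05. The differences were larger on the CREB3L3-/- side: 351 genes were more than 4-fold and 48 more than 16-fold higher in CREB3L3-/- livers, against 101 and 9 genes in PPARα-/- livers. Genes of cell division were 6 of the 12 largest decreases whose livers did not overlap, and cytochromes P450 were 7 of the 12 largest increases. Fitting the 7 arrays alone gave 2672 probe sets, 935 higher and 1737 lower.

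**Figure D1:**
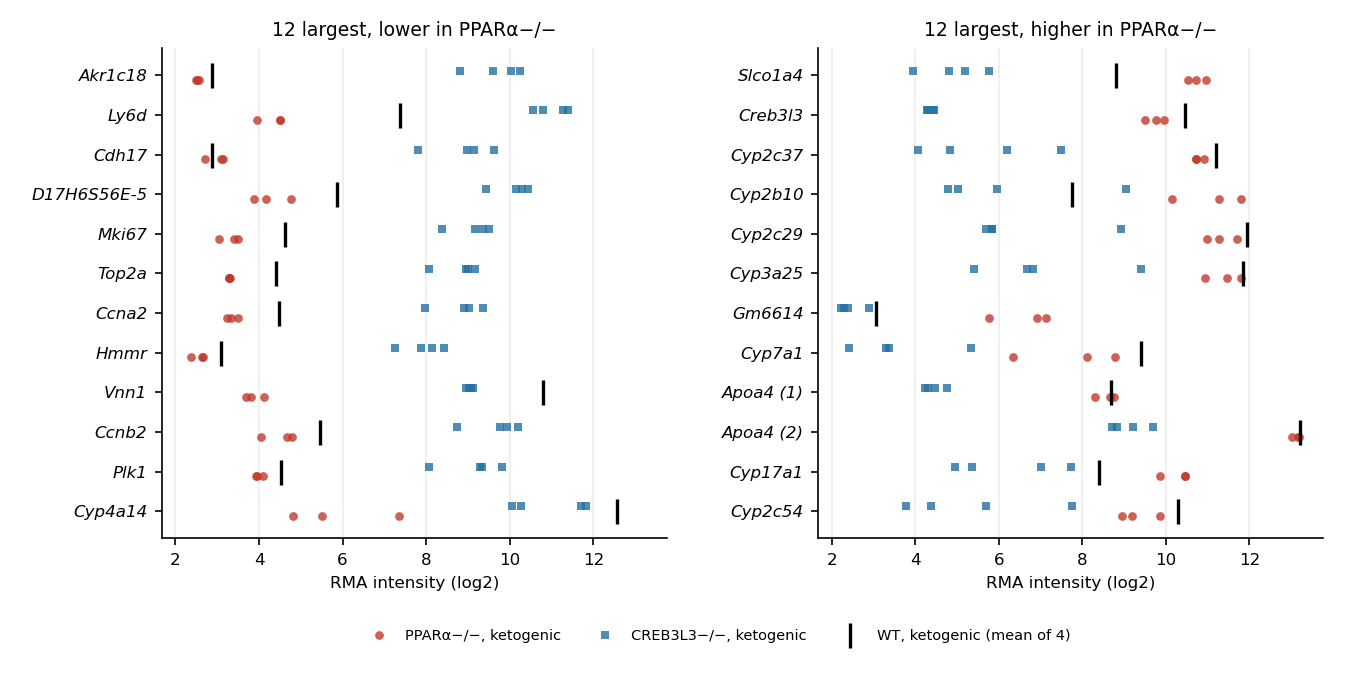
The 12 probe sets with the largest difference in each direction among those whose livers did not overlap, with the log2 RMA intensity of each liver on the x axis. Red circles are the 3 PPARα-/- livers, blue squares the 4 CREB3L3-/- livers and black bars the wild-type mean; Akr1c18 lies between 2.50 and 2.56 in PPARα-/- and between 8.82 and 10.26 in CREB3L3-/- livers. Apoa4 appears with 2 probe sets.

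The steepest single difference was that of Akr1c18, a hydroxysteroid dehydrogenase that inactivates progesterone. Its levels were 2.56, 2.51 and 2.50 in PPARα-/- livers and 8.82, 9.61, 10.04 and 10.26 in CREB3L3-/- livers, a difference of -7.16 (SE 0.32, adjusted p = 8e-15), and wild-type livers spanned 2.46 to 3.63. The high livers were therefore the CREB3L3-/- ones, with wild type close to PPARα-/-. Ly6d, a surface protein anchored by a lipid tail, read 4.5, 4.5 and 3.95 against 10.56, 11.27, 10.78 and 11.41, a difference of -6.69 (SE 0.58, adjusted p = 1.5e-09), but wild-type livers varied from 5.92 to 9.24. Cdh17, the liver-intestine cadherin, read 3.14, 3.08 and 2.71 against 7.81, 9.62, 8.98 and 9.15 (difference -5.91 (SE 0.24, adjusted p = 3e-15)), with wild type at 2.8 to 2.95. D17H6S56E-5, whose product is not characterised in the sources used here, differed by -5.81 (SE 0.35, adjusted p = 1.4e-12).

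Genes of mitosis and chromosome segregation were higher in CREB3L3-/- livers almost without exception. Of 66 measured members, 64 were lower in PPARα-/- livers and none higher, with a median difference of -3.85. The mean level over the list was 3.88, 3.85 and 3.75 in the PPARα-/- livers and 6.71, 7.84, 7.63 and 7.62 in the CREB3L3-/- livers. Each CREB3L3-/- liver thus stood well above every PPARα-/- liver, with liver 1 the lowest of the 4. Wild-type livers on the diet lay between 3.84 to 4.54 and combined-knockout livers between 3.77 to 3.86. After the fast, the PPARα-/- livers lay between 3.68 to 3.92 and the CREB3L3-/- livers between 3.67 to 3.77. The count of 64 was the same without CREB3L3-/- liver 1 and with the 7 arrays fitted alone.

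Mki67, the proliferation antigen Ki-67, read 3.49, 3.41 and 3.04 in PPARα-/- livers and 8.38, 9.51, 9.17 and 9.37 in CREB3L3-/- livers, a difference of -5.79 (SE 0.39, adjusted p = 1.6e-11). Wild-type livers spanned 3.38 to 5.64 and combined-knockout livers 3.10 to 3.72, so no liver outside the CREB3L3-/- group came near its range. Top2a, the topoisomerase that untangles chromosomes before division, read 3.31, 3.28 and 3.27 against 8.06, 9.17, 9.0 and 8.95, a difference of -5.51 (SE 0.29, adjusted p = 1.6e-13). That value is from its brightest probe set, and 2 dimmer ones gave -0.83 and -0.58. Hmmr, a receptor for hyaluronan that also acts on the mitotic spindle, read 2.66, 2.63 and 2.37 against 7.25, 8.43, 7.89 and 8.14 (difference -5.37 (SE 0.26, adjusted p = 3.2e-14)). The cyclins Ccna2 and Ccnb2, which activate the mitotic kinase, differed by -5.47 (SE 0.33, adjusted p = 1.3e-12) and -5.15 (SE 0.37, adjusted p = 4.1e-11), and the polo-like kinase Plk1 by -5.13 (SE 0.31, adjusted p = 1.7e-12). Among spindle and kinetochore genes, Kif4 (a chromosome-bound motor) differed by -4.76, Ttk (the kinase of the spindle checkpoint) by -4.17, Cenpe (a kinetochore motor) by -4.33 and Prc1 (a bundler of midzone microtubules) by -5.01. A dimmer probe set of Prc1 gave -0.20 and was not called.

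The promoters of Mki67, Top2a and Hmmr, for which the value of every liver is given above, are shown. These genes had the largest differences in the mitosis list among members with a promoter window. The stretches are the 250 bases before the RefSeq start site (GRCm38.p6), written 5′ to 3′ on the strand of the gene. Capitals mark the letters TTTGAA (the cell cycle genes homology region, CHR) and CCAAT (the CCAAT box) or their reverse complements TTCAAA and ATTGG. Both are elements by which genes of late cell cycle are commonly recognised. Mki67 is at chr7:135716380-135716629, Top2a at chr11:99024190-99024439 and Hmmr at chr11:40733438-40733687, all on the minus strand.
Mki67: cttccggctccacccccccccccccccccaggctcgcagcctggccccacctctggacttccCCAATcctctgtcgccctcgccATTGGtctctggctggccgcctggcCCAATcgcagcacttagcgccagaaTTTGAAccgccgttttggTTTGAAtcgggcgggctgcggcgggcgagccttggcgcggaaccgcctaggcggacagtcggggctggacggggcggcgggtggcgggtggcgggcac
Top2a: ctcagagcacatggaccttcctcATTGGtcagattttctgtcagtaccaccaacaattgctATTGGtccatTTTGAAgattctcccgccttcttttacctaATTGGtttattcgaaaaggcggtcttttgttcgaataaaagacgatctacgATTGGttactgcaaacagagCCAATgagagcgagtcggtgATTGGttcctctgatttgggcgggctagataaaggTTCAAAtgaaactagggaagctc
Hmmr: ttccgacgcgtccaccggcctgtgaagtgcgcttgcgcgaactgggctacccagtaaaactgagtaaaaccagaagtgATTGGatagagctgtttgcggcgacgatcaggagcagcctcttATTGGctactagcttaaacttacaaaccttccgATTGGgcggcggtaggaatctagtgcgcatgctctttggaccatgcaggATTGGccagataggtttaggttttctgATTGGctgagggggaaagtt
In Mki67, TTTGAA begins at bases -116 and -98 from the start site. Top2a holds it at -179 and, reversed, at -23, and in Hmmr it begins at base 9 after the start, outside the stretch printed. Over windows from 250 bases before to 50 bases after a start, TTTGAA was found in either orientation in 43 of 60 windows of the mitosis list (71.7%, from 56 of its 66 members) and in 17.9% of the 32851 windows of all genes. For the DNA replication list it was 7 of 48 windows (14.6%). CCAAT was found in 73.3% of the mitosis windows, 64.6% of the replication windows and 37.4% of all windows (a base could count for both motifs). TGACG, the core of the element bound by CREB-type factors, was present in 33.3% of the mitosis, 39.6% of the replication and 14.3% of the 21 apolipoprotein windows, against 20.8% of all. These matches describe the letters in the windows and show no binding.

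Genes that prepare cells for division moved in the same direction. In the list of DNA replication and G1/S genes, 48 of 50 members were lower in PPARα-/- livers and none higher (median -1.90), and the list mean ran from 5.13 to 5.31 in PPARα-/- and from 7.03 to 7.58 in CREB3L3-/- livers. Cyclin D1 (Ccnd1), which starts the passage from G1, read 7.07, 6.62 and 6.40 against 10.31, 9.99, 10.16 and 10.41, a difference of -3.52 (SE 0.3, adjusted p = 9.1e-10). Here wild type lay between the groups, at 8.36 to 9.71. Mcm4, a subunit of the replicative helicase, read 5.25, 5.26 and 4.93 against 7.94, 8.70, 8.87 and 8.11 (-3.26 (SE 0.23, adjusted p = 2.9e-11)). The ribonucleotide reductase subunits Rrm1 and Rrm2, which make deoxynucleotides, differed by -2.44 and -3.58, Dtl, which marks replication factors for breakdown, by -3.71 and the maintenance methyltransferase Dnmt1 by -2.18. Of 20 genes of replication-linked DNA repair, 19 were lower and none higher (median -2.05), among them Rad54l of homologous recombination (-2.96 (SE 0.19, adjusted p = 5.1e-12)), Fancd2 of crosslink repair (-3.44 (SE 0.18, adjusted p = 7.9e-14)) and Clspn of the replication checkpoint (-3.33 (SE 0.22, adjusted p = 1e-11)). Of 27 cell cycle inhibitors and p53 targets, 3 were lower (Cdkn2c, Phlda3 and Tnfrsf10b, at -0.93, -1.57 and -2.43) and 2 higher (Cdkn1b and Gadd45a, at 0.49 and 1.69). Cdkn1a, the p21 inhibitor, read 9.77, 9.87 and 10.06 against 9.93, 10.27, 10.42 and 10.24 and was not called (-0.31 (SE 0.46, adjusted p = 0.69)), while both groups lay above wild type by 2.59 and 2.90.

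**Figure D2:**
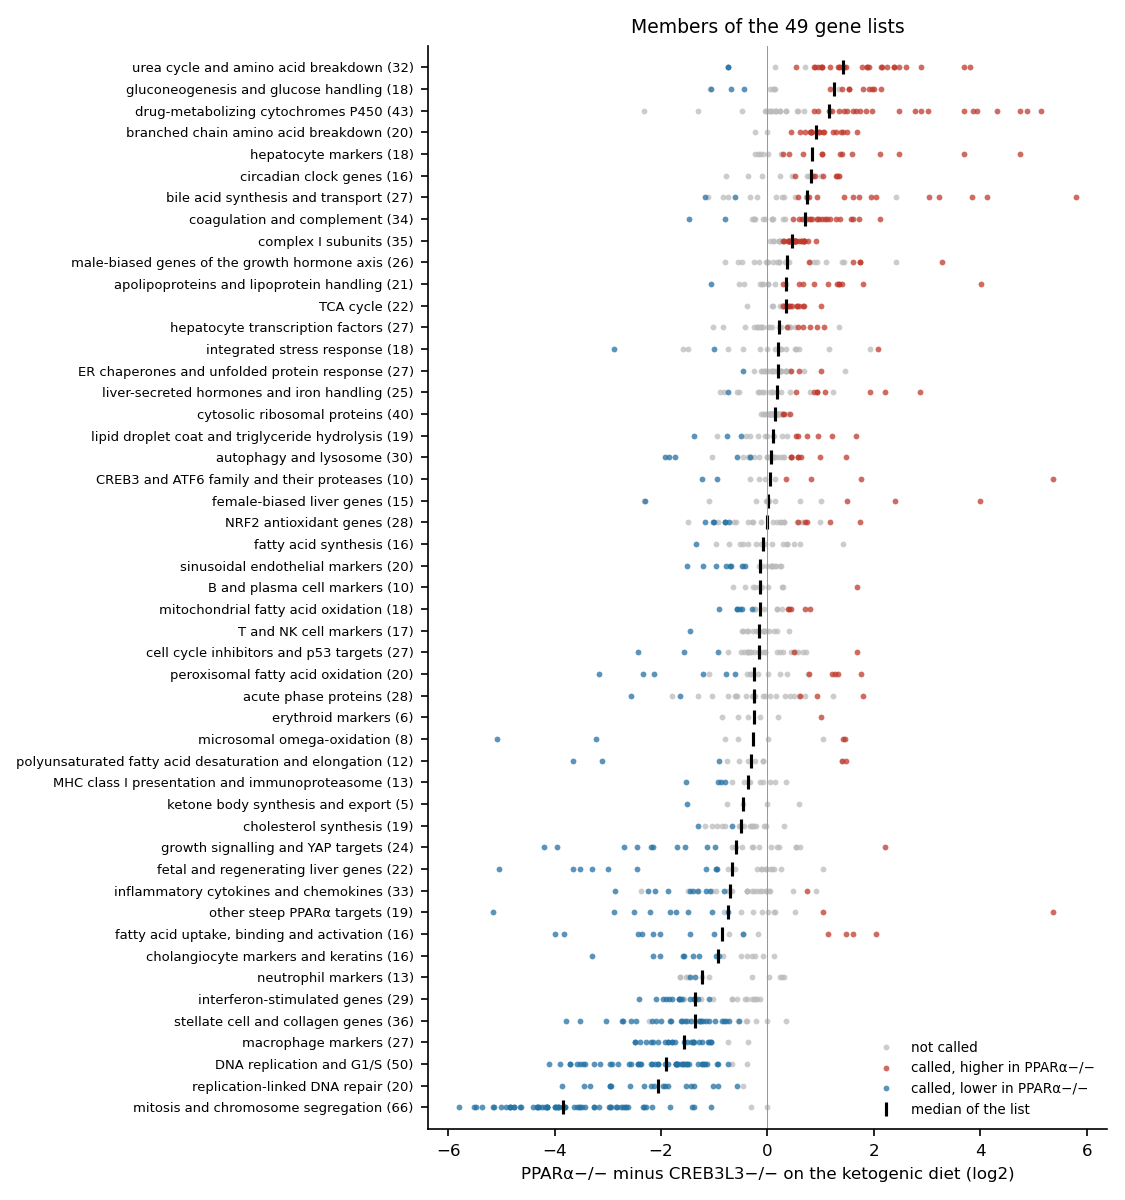
Difference of each member of the 49 gene lists, with the number of measured members in parentheses; the x axis is PPARα-/- minus CREB3L3-/- on the ketogenic diet in log2 units. Blue points were called lower and red points higher in PPARα-/- livers, grey points were not called and black bars are list medians, which run from -3.85 for mitosis to 1.42 for the urea cycle and amino acid breakdown.

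Several fetal and growth-associated genes were on the CREB3L3-/- side as well. In the list of fetal and regenerating liver genes 9 of 22 members were lower in PPARα-/- livers and none higher. Alpha-fetoprotein (Afp), the albumin-like protein of fetal liver, read 5.38, 5.96 and 5.22 against 9.20, 10.96, 11.22 and 10.91 with wild type at 3.70 to 3.86, a difference of -5.05 (SE 0.38, adjusted p = 8.2e-11). Both knockouts were above every wild-type liver, the CREB3L3-/- livers by far the most, and liver 1 was the lowest of these. Gpc3, a glypican of fetal liver, differed by -3.0 (SE 0.27, adjusted p = 2.4e-09) and Cd24a, a surface glycoprotein of immature epithelial cells, by -3.30 (SE 0.31, adjusted p = 6.4e-09). In the list of growth signalling and YAP targets 10 of 24 were lower and 1 higher. Ankrd1, a standard YAP target, read 3.70, 4.46 and 4.02 against 5.25, 6.48, 7.41 and 5.85 (-2.19 (SE 0.31, adjusted p = 5.1e-06)), Cd44, the hyaluronan receptor, differed by -3.95 (SE 0.24, adjusted p = 2.4e-12) and Hgf, the hepatocyte growth factor, by -1.13 (SE 0.15, adjusted p = 1.7e-06). The exception was Igfbp2, a binding protein of insulin-like growth factors, which read 10.43, 9.80 and 10.06 against 9.50, 7.46, 7.36 and 7.25 and was higher in PPARα-/- livers by 2.21 (SE 0.33, adjusted p = 7.6e-06), or 2.74 without CREB3L3-/- liver 1.

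Most macrophage and stellate cell markers and part of the biliary and endothelial ones were also higher in CREB3L3-/- livers, whereas other immune lists held few calls. Of 27 macrophage markers, 25 were lower in PPARα-/- livers and none higher (median -1.58), and the list mean was 6.60, 6.5 and 6.25 in PPARα-/- against 7.82, 8.21, 8.20 and 8.04 in CREB3L3-/- livers. Wild type lay between, at 6.68 to 7.37. Cd68, a lysosomal protein of macrophages, read 8.62, 8.49 and 8.19 against 10.11, 10.83, 10.56 and 9.93 (-1.92 (SE 0.27, adjusted p = 3e-06)), Csf1r, the receptor on which macrophages depend, read 7.65, 7.36 and 7.08 against 8.59, 8.94, 8.78 and 8.88 (-1.44 (SE 0.13, adjusted p = 4.4e-09)) and the antibacterial enzyme Lyz2 differed by -2.28 (SE 0.21, adjusted p = 3.6e-09). Clec4f, a lectin particular to Kupffer cells, read 8.69, 8.54 and 8.32 against 9.80, 9.67, 9.73 and 9.74 (-1.22 (SE 0.19, adjusted p = 1.6e-05)). In bulk liver, a larger number of such cells and more RNA per cell cannot be told apart. Of the remaining immune lists, 2 of 13 neutrophil markers (Csf3r and Itgax, at -1.46 and -1.36) and 1 of 17 T and NK cell markers (the chemokine Ccl5, -1.45) were lower. The neutrophil list still had a median difference of -1.23, and 8 of its 13 members were lower and 0 higher at an unadjusted limma P under 0.05. Its mean was 3.43 to 3.58 in PPARα-/- and 3.77 to 5.48 in CREB3L3-/- livers. Except in CREB3L3-/- liver 3 (5.48), these means lay below the median of all probe sets, close to background. Of 10 B and plasma cell markers the adaptor Blnk was higher (1.69), and of 6 erythroid markers the transcription factor Klf1 (1.0). Among 13 genes of MHC class I presentation 4 were lower, led by the immunoproteasome subunit Psmb8 (-1.53).

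Among stellate cell and collagen genes 29 of 36 were lower in PPARα-/- livers and none higher, with a median of -1.36 and list means of 5.81 to 6.08 against 7.12 to 7.58. Type III collagen (Col3a1) read 4.82, 4.78 and 4.40 against 7.54, 8.22, 8.61 and 8.35 (-3.52 (SE 0.27, adjusted p = 1.7e-10)), vimentin (Vim), the filament of mesenchymal cells, read 7.38, 7.19 and 6.93 against 10.34, 11.31, 11.26 and 10.89 (-3.78 (SE 0.28, adjusted p = 7.9e-11)) and the matrix protein Sparc read 8.76, 8.64 and 8.69 against 10.43, 10.56, 10.58 and 10.52 (-1.83 (SE 0.14, adjusted p = 1.2e-10)). None of these overlapped between groups. Of 16 cholangiocyte markers and keratins 9 were lower, with list means of 4.94 to 5.05 against 5.91 to 6.16: the biliary transcription factor Sox9 read 6.32, 6.10 and 6.3 against 8.19, 8.76, 8.75 and 7.87 (-2.15 (SE 0.35, adjusted p = 2.3e-05)), whereas the defining epithelial marker Epcam stayed near background at 3.74 to 3.86 and 3.92 to 4.67 and was not called (-0.39). Sinusoidal endothelial markers differed less, with 8 of 20 lower and list means of 7.27 to 7.44 against 7.49 to 7.79. These markers were higher in the same livers as the cell division genes, and their part in the differences of other genes was not tested.

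Part of the inflammatory signals followed the same side, with 10 of 33 cytokine and chemokine genes lower in PPARα-/- livers and 1 higher (the interleukin-6 receptor Il6ra, 0.75). The monocyte attractant Ccl2 read 4.03, 4.07 and 3.34 against 5.98, 6.88, 7.82 and 6.03 (-2.86 (SE 0.43, adjusted p = 9.3e-06)), Tgfb1, the main fibrogenic cytokine, differed by -1.88 (SE 0.15, adjusted p = 1.9e-10) and Vcam1, an adhesion receptor for leukocytes, by -2.25 (SE 0.20, adjusted p = 2.1e-09). Interferon-stimulated genes looked different with respect to wild type. Of 29 members 16 were lower in PPARα-/- than in CREB3L3-/- livers, but here the list mean spanned 5.64 to 5.96 in PPARα-/- livers, 6.74 to 7.28 in CREB3L3-/- livers and 6.81 to 7.95 in wild-type livers, so that the CREB3L3-/- livers were within the range of wild type or just below it. The antiviral genes Oas2 (-1.97 (SE 0.23, adjusted p = 2e-07)) and Oasl2 (-2.10 (SE 0.26, adjusted p = 4.2e-07)) and the tetherin gene Bst2 (-1.65 (SE 0.21, adjusted p = 8e-07)) were examples, and PPARα-/- livers were below wild type by -1.73, -1.73 and -2.03. Acute phase proteins did not move as a group, with 3 of 28 higher (Orm3, Crp and Lbp, at 1.80, 0.94 and 0.61) and 2 lower (Steap4 and the endotoxin receptor Cd14, at -1.64 and -2.56).

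**Figure D3:**
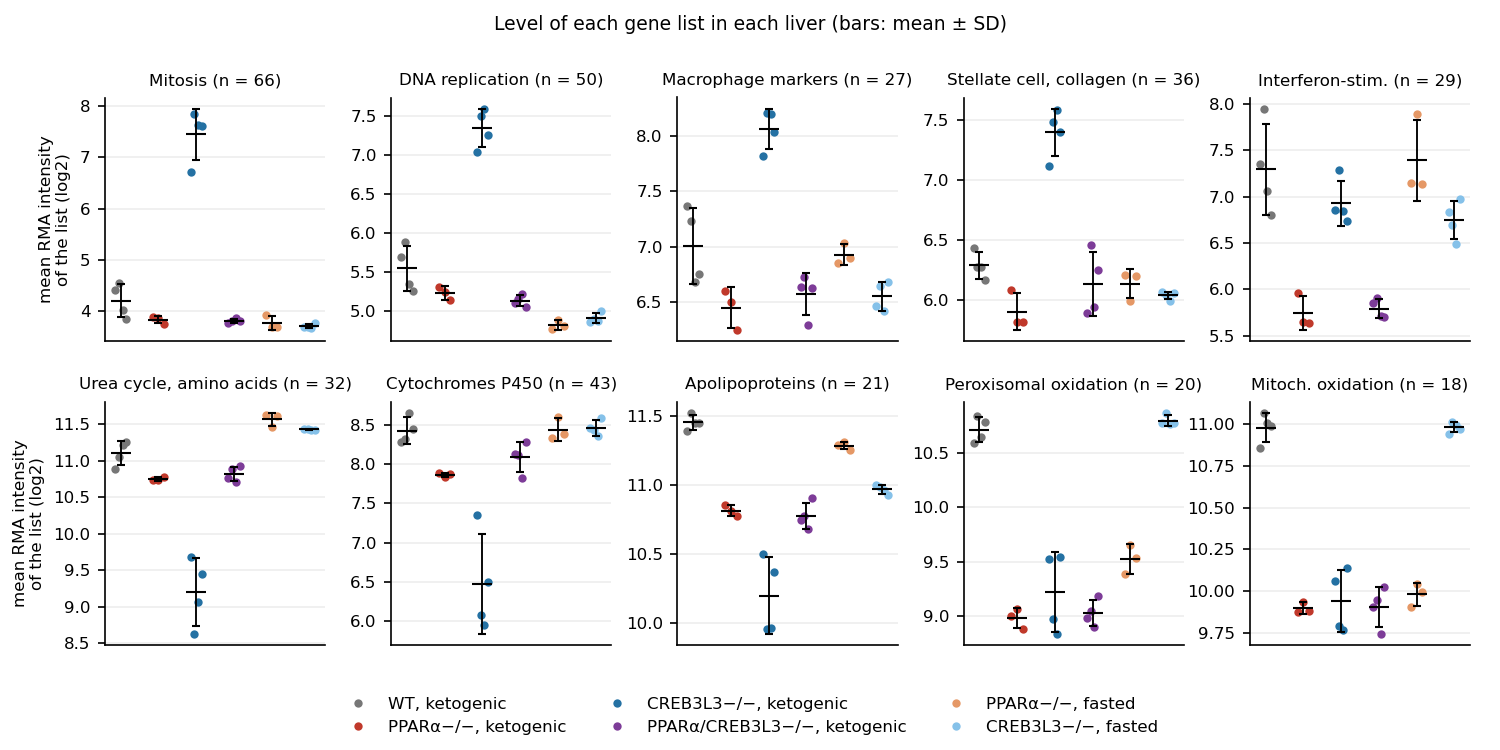
Mean log2 RMA intensity over the members of 10 gene lists in each liver, by genotype and regimen, with n the number of measured genes; black bars are the group mean and whiskers the SD over livers. Mitosis, replication, macrophage and stellate cell lists are high in ketogenic CREB3L3-/- livers, the urea cycle and P450 lists are low in them, and the mean over the oxidation lists overlaps between the ketogenic single knockouts and lies below ketogenic wild type in both. The y axes do not start at 0 and differ between panels.

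Several standard PPARα targets were lower in PPARα-/- livers. Vnn1, a pantetheinase that is a standard readout of PPARα, read 4.12, 3.82 and 3.70 against 9.12, 9.02, 8.96 and 9.07, a difference of -5.17 (SE 0.36, adjusted p = 2.7e-11), with wild type at 10.67 to 11.11. Cyp4a14, a fatty acid omega-hydroxylase, read 7.35, 5.51 and 4.82 against 11.84, 10.28, 10.05 and 11.72 (-5.08 (SE 0.5, adjusted p = 1.4e-08)) and its relative Cyp4a31 read 6.51, 6.24 and 6.34 against 10.13, 8.87, 9.02 and 10.31 (-3.22 (SE 0.34, adjusted p = 4.4e-08)). These hydroxylases are near-identical paralogs, and probes may share their signal. Ehhadh, the bifunctional enzyme of peroxisomal β-oxidation, read 9.01, 9.06 and 9.04 against 11.33, 11.25, 11.02 and 11.95 (-2.35 (SE 0.16, adjusted p = 1.6e-11)). Acaa1b, a peroxisomal thiolase, read 7.25, 7.22 and 6.51 against 9.55, 8.92, 8.56 and 9.46 (-2.13 (SE 0.23, adjusted p = 8.2e-08)), and the very long chain transporter Abcd2 differed by -3.17 (SE 0.31, adjusted p = 1.2e-08). In all of these the CREB3L3-/- livers were the higher group without overlap, and after the fast the differences were -6.39 for Vnn1, -4.36 for Cyp4a14, -2.95 for Ehhadh and -2.52 for Acaa1b. Of the 19 other steep PPARα targets on the list, 9 were lower and 2 higher in PPARα-/- livers. The 2 higher ones were Creb3l3 itself, which was deleted in the other group, and Acot12, an acetyl-CoA thioesterase (1.04 (SE 0.11, adjusted p = 2.4e-08)). Fgf21, a fasting hormone of the liver and a target of both factors, read 4.14, 5.59 and 4.30 against 6.17, 5.05, 4.37 and 6.38 and was not called (-0.82 (SE 0.48, adjusted p = 0.24)), with wild type at 6.16 to 8.74.

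Genes of fatty acid oxidation differed between the single knockouts in both directions on the diet. For mitochondrial fatty acid oxidation, 5 of 18 genes were higher and 6 lower in PPARα-/- livers, with a median of -0.15. With the 7 arrays alone 3 were higher and 3 lower. Both groups had moved below wild type: 17 genes were lower than wild type in PPARα-/- livers and 17 in CREB3L3-/- livers, against 0 and 0 that were higher, where 7.15% and 11.9% of all genes were lower than wild type. Those comparisons share the wild-type livers. The list mean spanned 9.87 to 9.94 in PPARα-/- livers and 9.77 to 10.14 in CREB3L3-/- livers, whereas wild-type livers spanned 10.86 to 11.07. After the fast it was 9.91 to 10.04 in PPARα-/- and 10.94 to 11.02 in CREB3L3-/- livers, with 16 of 18 genes lower in PPARα-/-, and for 16 of them the difference under the diet was itself higher than that under the fast by the interaction test. Cpt1a, which commits fatty acids to mitochondria, read 11.10, 11.03 and 10.90 against 10.17, 10.30, 10.22 and 10.54 and was higher in PPARα-/- livers (0.7 (SE 0.09, adjusted p = 4.7e-07)), with wild type above both at 11.60 to 11.73. It was the 1 gene of the list also called higher in PPARα-/- livers after the fast (0.57), and its interaction of 0.14 was not called. The other members higher on the diet were Acadm, Etfa, Echs1 and Hsd17b10, between 0.38 and 0.79. Its partners Cpt2 and Slc25a20, the carnitine acyltransferase and the carrier of the inner membrane, were lower by the same test (-0.9 (SE 0.10, adjusted p = 1.3e-07) and -0.58 (SE 0.11, adjusted p = 0.00016)).

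Peroxisomal fatty acid oxidation was split in the same way, with 5 of 20 genes higher (2 with the 7 arrays alone) and 6 lower. The list mean was 9.0, 9.06 and 8.88 in PPARα-/- against 9.53, 8.98, 8.84 and 9.54 in CREB3L3-/- livers, which overlapped. All but a few members were below wild type in each knockout (17 in PPARα-/-, 18 in CREB3L3-/- livers), and after the fast 15 were lower in PPARα-/-. Members on the higher side were Phyh, which starts α-oxidation of branched fatty acids (1.28 (SE 0.15, adjusted p = 1.6e-07)), Scp2, a sterol carrier and thiolase (1.76 (SE 0.28, adjusted p = 2.1e-05)), Pecr (1.33), Hacl1 (1.22) and Mlycd (0.78). In microsomal omega-oxidation 2 of 8 genes were lower, the Cyp4a genes above, and 2 higher, Cyp4f13 (1.42) and Cyp4f15 (1.46). Of the 5 measured genes of ketone body synthesis and export, only Slc16a1, a monocarboxylate exporter, was called (-1.52 (SE 0.15, adjusted p = 7.5e-09)). Bdh1, which interconverts the ketone bodies, read 8.96, 9.27 and 7.71 against 9.58, 9.50, 8.98 and 9.55 and was not called (-0.75 (SE 0.33, adjusted p = 0.098)), and wild-type livers lay far above both groups at 11.04 to 11.44.

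Genes of fatty acid uptake were for the larger part higher in CREB3L3-/- livers, while those of desaturation and elongation held calls in both directions. Among 16 genes of uptake, binding and activation, 9 were lower and 4 higher in PPARα-/- livers (median -0.86). Fabp1, the fatty acid binding protein of hepatocytes, read 8.94, 7.98 and 6.46 against 12.14, 11.48, 11.31 and 12.24 (-4.0 (SE 0.41, adjusted p = 2.1e-08)), and the fatty acid translocase Cd36 read 7.64, 7.18 and 7.33 against 9.12, 9.47, 9.62 and 9.94 (-2.15 (SE 0.25, adjusted p = 2.2e-07)). Lipoprotein lipase (Lpl) read 6.58, 6.24 and 5.11 against 8.31, 8.73, 8.31 and 8.27 (-2.43 (SE 0.28, adjusted p = 1.9e-07)). The desaturases Scd1 and Scd2, which make monounsaturated fatty acids, differed by -3.10 (SE 0.33, adjusted p = 5e-08) and -3.65 (SE 0.29, adjusted p = 2.4e-10), with Scd1 at 5.54, 6.47 and 5.15 against 9.43, 8.27, 8.44 and 9.13. The higher genes of uptake were Slc27a5, the bile acyl-CoA synthetase (2.04 (SE 0.24, adjusted p = 2.4e-07)), Fabp2 (1.62), Acsm5 (1.48) and Acss2 (1.14). In polyunsaturated fatty acid synthesis 2 of 12 genes were higher, Fads6 (1.41) and Elovl2, which elongates polyunsaturated fatty acids (1.48 (SE 0.18, adjusted p = 3.3e-07)), and 3 lower, the Scd genes and Fads3 (-0.91). De novo fatty acid synthesis and cholesterol synthesis held few calls: of 16 and 19 genes only the sterol regulatory factors Srebf1 (-1.34) and Srebf2 (-0.67) and the sterol dehydrogenase Nsdhl (-1.31) were called, all lower. Of 19 lipid droplet genes 6 were higher and 3 lower, the latter being the droplet coat protein Plin2 (-0.76), Cidea (-0.5) and Hilpda (-1.38). With the 7 arrays alone none of these was higher and 1 was lower.

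Several apolipoprotein genes were higher in PPARα-/- livers. Of 21 genes of apolipoproteins and lipoprotein handling, 11 were higher and 1, the cholesterol exporter Abca1 (-1.05), lower (median 0.34), but with the 7 arrays fitted alone 3 were higher. List means were 10.77 to 10.85 in PPARα-/-, 9.96 to 10.50 in CREB3L3-/-, 10.68 to 10.91 in combined-knockout and 11.39 to 11.52 in wild-type livers. In the combined knockout, which also lacks Creb3l3, 11 of the 21 were higher and 1 lower than in CREB3L3-/- livers. Against PPARα-/- livers, 2 were higher and 2 lower in it. Below wild type were 13 in PPARα-/- and 18 in CREB3L3-/- livers. Apoa4, an apolipoprotein of chylomicrons and high-density lipoprotein that rises with hepatic fat, read 13.17, 13.18 and 13.03 against 9.69, 8.82, 8.71 and 9.21, a difference of 4.02 (SE 0.22, adjusted p = 1.7e-13). PPARα-/- livers were within or next to the wild-type range (13.13 to 13.36), and combined-knockout livers were between, at 10.35 to 10.67. Apoa5, which promotes triglyceride clearance by lipoprotein lipase, read 11.40, 11.56 and 11.36 against 9.73, 9.25, 9.64 and 9.95 (1.80 (SE 0.13, adjusted p = 8.6e-11)). Apoc3, an inhibitor of that lipase, and Apoc4 differed by 0.87 (SE 0.10, adjusted p = 3.5e-07) and 1.30 (SE 0.17, adjusted p = 1.2e-06). By contrast Apoc2, the activator of lipoprotein lipase, read 11.66, 11.78 and 11.28 against 11.52, 12.27, 12.38 and 12.28 and was not called (-0.54 (SE 0.16, adjusted p = 0.014)), whereas after the fast it was higher in PPARα-/- livers by 1.03. Outside the apolipoprotein list, Insig2, a brake on sterol regulatory factors, read 10.56, 10.55 and 10.59 against 9.36, 8.39, 8.70 and 8.77 (1.76 (SE 0.25, adjusted p = 4.3e-06)). Cidec, a protein that enlarges lipid droplets, read 8.48, 8.34 and 7.40 against 7.16, 6.38, 6.11 and 6.03 (1.66 (SE 0.44, adjusted p = 0.0058)). Of the 10 members of the CREB3 and ATF6 family and their partners 4 were higher and 2 lower. The 4 include Creb3l3 itself, which was deleted in the CREB3L3-/- mice, so its call follows from the design. The related factors Creb3l1 and Creb3l2 were higher in CREB3L3-/- livers (-1.23 (SE 0.18, adjusted p = 6.5e-06) and -0.95 (SE 0.16, adjusted p = 3.5e-05)).

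Calls in the lists of differentiated hepatocyte genes were mainly on the side of higher levels in PPARα-/- livers. Of 18 hepatocyte markers, 12 were higher and none lower, and list means were 12.03 to 12.10 in PPARα-/- against 10.51 to 11.60 in CREB3L3-/- livers. With the 7 arrays alone 5 were called. Cps1, the entry enzyme of the urea cycle, read 12.63, 12.61 and 12.72 against 11.55, 10.63, 11.21 and 11.77 (1.37 (SE 0.16, adjusted p = 2.7e-07)) and the asialoglycoprotein receptor subunit Asgr1 read 10.42, 10.42 and 10.51 against 9.74, 8.25, 8.36 and 9.10 (1.59 (SE 0.19, adjusted p = 3e-07)). Albumin (Alb) read 12.90, 13.05 and 13.02 against 13.19, 13.07, 13.12 and 13.27 and was not called (-0.17 (SE 0.05, adjusted p = 0.014)), and Hnf4a, the leading hepatocyte transcription factor, was not called either (-0.15 (SE 0.07, adjusted p = 0.10)). Among 27 hepatocyte transcription factors 6 were higher and none lower, including Nr1h4, the bile acid receptor FXR (0.58 (SE 0.12, adjusted p = 0.00050)). This count was 2 with the 7 arrays alone and 3 without CREB3L3-/- liver 3, which also left 1 lower.

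Drug-metabolising cytochromes P450 held several of the largest differences, with 23 of 43 members higher in PPARα-/- livers and none lower (median 1.15), although 10 were called with the 7 arrays alone. The list mean was 7.83 to 7.88 in PPARα-/-, 7.35, 6.08, 5.95 and 6.5 in CREB3L3-/- and 8.28 to 8.65 in wild-type livers, so CREB3L3-/- liver 1 was the nearest to the others. Cyp2c37 read 10.91, 10.71 and 10.71 against 7.48, 6.19, 4.83 and 4.07 (5.14 (SE 0.42, adjusted p = 5e-10)) and Cyp2c29 read 10.99, 11.28 and 11.71 against 8.91, 5.70, 5.84 and 5.85 (4.75 (SE 0.45, adjusted p = 5.7e-09)), which was 5.53 without liver 1. Members of the Cyp2c family are close paralogs, so part of their signal may be shared. Cyp2b10, the standard target of the xenobiotic receptor CAR, read 10.15, 11.28 and 11.80 against 9.05, 4.80, 5.02 and 5.95, a difference of 4.87 (SE 0.68, adjusted p = 2.8e-06) or 5.82 without liver 1, and PPARα-/- livers were above wild type by 3.32. Slco1a4, a transporter of organic anions and bile acids, read 10.72, 10.54 and 10.96 against 4.82, 3.96, 5.77 and 5.2 (5.80 (SE 0.41, adjusted p = 3.9e-11)), with wild-type livers at 8.15 to 9.71, between the groups. Gm6614 read 5.76, 6.92 and 7.13 against 2.89, 2.23, 2.29 and 2.40 (4.15 (SE 0.26, adjusted p = 3.6e-12)). Here the PPARα-/- livers were the ones apart, since wild type read 2.84 to 3.35.

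In bile acid metabolism 14 of 27 genes were higher and 2 lower in PPARα-/- livers. With the 7 arrays alone 9 were higher, and without CREB3L3-/- liver 1 the lower ones were 5. Cyp7a1, the rate-limiting enzyme of bile acid synthesis, read 8.10, 8.78 and 6.34 against 5.34, 3.31, 2.41 and 3.38 (4.13 (SE 0.86, adjusted p = 0.00053); 4.71 without liver 1), with wild type at 8.50 to 11.29. Slc10a1, which takes up bile acids from blood, read 11.99, 11.79 and 11.94 against 10.09, 8.49, 7.95 and 8.92 (3.04 (SE 0.25, adjusted p = 4.8e-10)), and Baat, which conjugates them, read 9.33, 9.46 and 9.36 against 7.69, 6.95, 7.25 and 7.86 (1.95 (SE 0.16, adjusted p = 7.6e-10)). Akr1d1, the reductase of the pathway, differed by 3.84 (SE 0.40, adjusted p = 3.8e-08). In all of these the CREB3L3-/- livers were the low group. The 2 lower genes were Abcc4, a pump that exports bile acids to blood, which read 7.76, 7.78 and 7.79 against 9.16, 9.06, 8.33 and 9.25 (-1.17 (SE 0.26, adjusted p = 0.0012)) and lay above wild type in both knockouts (4.87 to 5.52), and Amacr, a racemase of the pathway (-0.62 (SE 0.12, adjusted p = 0.00019)). Cyp17a1, the steroid 17-hydroxylase, read 9.87, 10.45 and 10.45 against 7.73, 4.95, 5.35 and 7.01 (4.0 (SE 0.55, adjusted p = 2.6e-06)).

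Genes of nitrogen metabolism were higher in PPARα-/- livers. Of 32 genes of the urea cycle and amino acid breakdown, 28 were higher and 2 lower in PPARα-/- livers (median 1.42), the latter being glutamine synthetase (Glul, -0.74) and glutamate dehydrogenase (Glud1, -0.73), and with the 7 arrays alone 18 were higher. The list mean was 10.73 to 10.78 in PPARα-/-, 9.68, 8.63, 9.06 and 9.45 in CREB3L3-/- and 10.89 to 11.26 in wild-type livers. Oat, which breaks down ornithine, read 10.23, 10.68 and 10.43 against 8.41, 8.30, 8.29 and 8.13 (2.16 (SE 0.16, adjusted p = 7.9e-11)). Bhmt, which remethylates homocysteine, read 12.44, 12.16 and 11.87 against 9.35, 9.57, 9.77 and 10.40 (2.39 (SE 0.18, adjusted p = 1.4e-10)). Gpt, the alanine aminotransferase, read 9.88, 9.85 and 10.00 against 8.27, 7.86, 7.89 and 8.17 (1.86 (SE 0.13, adjusted p = 2.5e-11)), and Fah, the last enzyme of tyrosine breakdown, read 11.20, 11.21 and 11.28 against 10.23, 9.69, 9.71 and 10.01 (1.32 (SE 0.08, adjusted p = 5.8e-12)). For each of these, every PPARα-/- liver was above every CREB3L3-/- liver. Of 20 genes of branched chain amino acid breakdown, 18 were higher and none lower (median 0.91).

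Genes of gluconeogenesis and energy metabolism were also higher in PPARα-/- livers in part. In the gluconeogenesis list 9 of 18 genes were higher and 3 lower, with a median of 1.26, the lower ones being genes of glycolysis (Pfkl, Pgam1 and Ldha, at -1.05, -0.45 and -0.68). Fbp1, a committed step of gluconeogenesis, read 10.87, 11.22 and 11.08 against 9.84, 8.67, 9.57 and 10.01 (1.54 (SE 0.18, adjusted p = 2.4e-07)), Slc37a4, the glucose 6-phosphate carrier, differed by 1.80 (SE 0.20, adjusted p = 1.1e-07) and Gys2, the liver glycogen synthase, by 2.01 (SE 0.27, adjusted p = 2e-06). Pdk4, which blocks entry of pyruvate into the mitochondrial oxidation of glucose, read 8.06, 7.97 and 8.50 against 9.92, 9.80, 9.98 and 10.35 with wild type at 5.70 to 7.87, and was higher in CREB3L3-/- livers (-1.83 (SE 0.41, adjusted p = 0.0010)). Complex I subunits were higher in PPARα-/- livers for 24 of 35 genes, but none reached a 2-fold difference (median 0.46, largest 0.91). Of 22 TCA cycle genes 12 were higher (median 0.34, largest 1.0 for Sdhb, a subunit of succinate dehydrogenase), or 7 with the 7 arrays alone. Of 34 coagulation and complement genes 18 were higher and 2 lower, from F13b, a subunit of the clot-stabilising factor, at 2.12 to complement factor Cfb at -0.79 and the clotting factor F11 at -1.47, and 4 were higher with the 7 arrays alone. Clock genes were higher for 7 of 16, with Per2, a repressor of the clock, at 7.64, 7.49 and 7.93 against 6.97, 6.10, 6.09 and 6.44 (1.29 (SE 0.22, adjusted p = 4.9e-05)). With the 7 arrays alone 4 were higher. The study's methods give a morning hour for euthanasia and no time for each liver, so the part of sampling time was not tested.

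Several lists held calls in both directions or few calls. Genes of the unfolded protein response gave 3 higher (Dnajc3, Herpud1 and Derl1, from 0.44 to 1.01) and 1 lower (Ssr1, -0.46) of 27, and the chaperone BiP (Hspa5) read 12.38, 12.48 and 12.52 against 12.51, 12.17, 12.36 and 12.30 (0.12 (SE 0.10, adjusted p = 0.43)). The integrated stress response gave 1 higher and 2 lower of 18: Trib3, a pseudokinase induced by that response, was higher in PPARα-/- livers (2.07 (SE 0.43, adjusted p = 0.00056)), and Phgdh, the first enzyme of serine synthesis, and Psph, the last, were lower (-2.89 (SE 0.22, adjusted p = 1.2e-10) and -1.01 (SE 0.16, adjusted p = 1.6e-05)). For Phgdh, 2 dimmer probe sets gave -2.57 and -0.68, the latter not called. For NRF2 targets the counts were 5 higher, led by the glutathione transferase Gstm3 (1.74), and 6 lower of 28, and for autophagy and lysosome genes 7 and 5 of 30. Male-biased genes of the growth hormone axis gave 5 higher of 26 (Ugt2b1, Ugt2b38, Cyp2d9, Cyp7b1 and Ghr, from 0.79 to 3.27), a count that was 11 without CREB3L3-/- liver 1 and 1 with the 7 arrays alone. Female-biased genes gave 3 higher (Cyp17a1, Fmo2 and Cyp3a44, from 1.5 to 4.0) and 1 lower (Rtn4, -2.31) of 15, and liver-secreted hormones and iron genes 8 higher and 1 lower (Angptl4, an inhibitor of lipoprotein lipase, -0.74) of 25. Cytosolic ribosomal proteins gave 3 higher of 40 between the knockouts (Rps9, Rps13 and Rps28, from 0.3 to 0.42). Against wild type, 39 of them were higher in PPARα-/- and 39 in CREB3L3-/- livers.

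Counts in small lists also moved with the livers and arrays used. Neutrophil markers lower in PPARα-/- livers were 4 without CREB3L3-/- liver 1, 1 without CREB3L3-/- liver 3 or PPARα-/- liver 2 or 3, and 0 with the 7 arrays alone. Mitochondrial oxidation genes higher in PPARα-/- livers were 3 without CREB3L3-/- liver 2 or 3 or PPARα-/- liver 1, and 2 without PPARα-/- liver 2 or 3. Higher NRF2 targets were 8 without CREB3L3-/- liver 1, 3 without CREB3L3-/- liver 3 or PPARα-/- liver 1 or 3, and 1 with the 7 arrays alone, and lower ones were 3 without CREB3L3-/- liver 2. Higher acute phase genes were 5 without CREB3L3-/- liver 1 and 1 without CREB3L3-/- liver 2 or 3 or PPARα-/- liver 1 or 3, while lower ones were 5 without CREB3L3-/- liver 2 and 4 without PPARα-/- liver 1. Lower cholesterol synthesis genes were 7 without PPARα-/- liver 2, 1 without CREB3L3-/- liver 4, and 0 without PPARα-/- liver 1 or 3 or with the 7 arrays alone. Higher ribosomal protein genes were 5 without CREB3L3-/- liver 3, 1 without CREB3L3-/- liver 1 or 4 or PPARα-/- liver 3, and 0 with the 7 arrays alone. Higher cell cycle inhibitors were 1 without CREB3L3-/- liver 2 or 4 or PPARα-/- liver 2, and 0 without PPARα-/- liver 3. With the 7 arrays alone, lower endothelial markers were 4, higher autophagy and lysosome genes 4, higher liver-secreted hormones and iron genes 3, higher genes of the unfolded protein response 1 and lower genes of the integrated stress response 4. The single higher calls Il6ra and Igfbp2 were lost with the 7 arrays alone, and Il6ra also without CREB3L3-/- liver 2 or 3 or PPARα-/- liver 1 or 3.

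The comparisons of each single knockout with wild type share the wild-type livers, and each also shares its knockout livers with the direct comparison, so their counts are given side by side only. Taken as 1 probe set per gene, PPARα-/- livers differed from wild type in 13.6% of genes (6.45% higher, 7.15% lower) and CREB3L3-/- livers in 28.7% (16.7% higher, 11.9% lower). Over probe sets these shares were 14.4% (7.79% and 6.66%) and 29.1% (17.7% and 11.4%). For mitosis, 0 genes were higher and 4 lower than wild type in PPARα-/- livers, and 64 higher and 0 lower in CREB3L3-/- livers. For macrophage markers the counts were 1 higher and 15 lower in PPARα-/-, and 18 higher and 0 lower in CREB3L3-/- livers. For interferon-stimulated genes they were 0 and 22 in PPARα-/- against 1 and 4 in CREB3L3-/- livers, and for the urea cycle and amino acid breakdown 3 and 12 against 0 and 28. The combined knockout differed from PPARα-/- livers in 678 probe sets (3.20%, with 1.05% higher and 2.14% lower) and from CREB3L3-/- livers in 5758 (27.1%, with 10.8% and 16.4%). Of the mitosis genes, 66 of 66 were not called between the combined knockout and PPARα-/- livers, while 64 were lower in the combined knockout than in CREB3L3-/- livers.

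The same comparison was made in fasted livers. The fasted single knockouts, of which none was also used on the diet, differed in 1133 probe sets (5.34%), 580 of them higher in PPARα-/- (2.73%) and 553 lower (2.61%). By gene, 5.65% differed, 2.94% being higher and 2.71% lower. Of the genes called under both regimens, 149 were higher in PPARα-/- under each, which is 8.44% of the genes higher on the diet and 26.9% of those higher after the fast, and 128 were lower under each (5.12% and 25.1%). A further 64 were higher on the diet and lower after the fast, and 60 the opposite. The interaction test, the difference under the diet minus the difference under the fast, called 3480 probe sets (16.4%), 1392 (6.56%) more positive and 2088 (9.84%) more negative on the diet, and by gene it called 17.0% (6.61% and 10.4%).

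**Figure D4:**
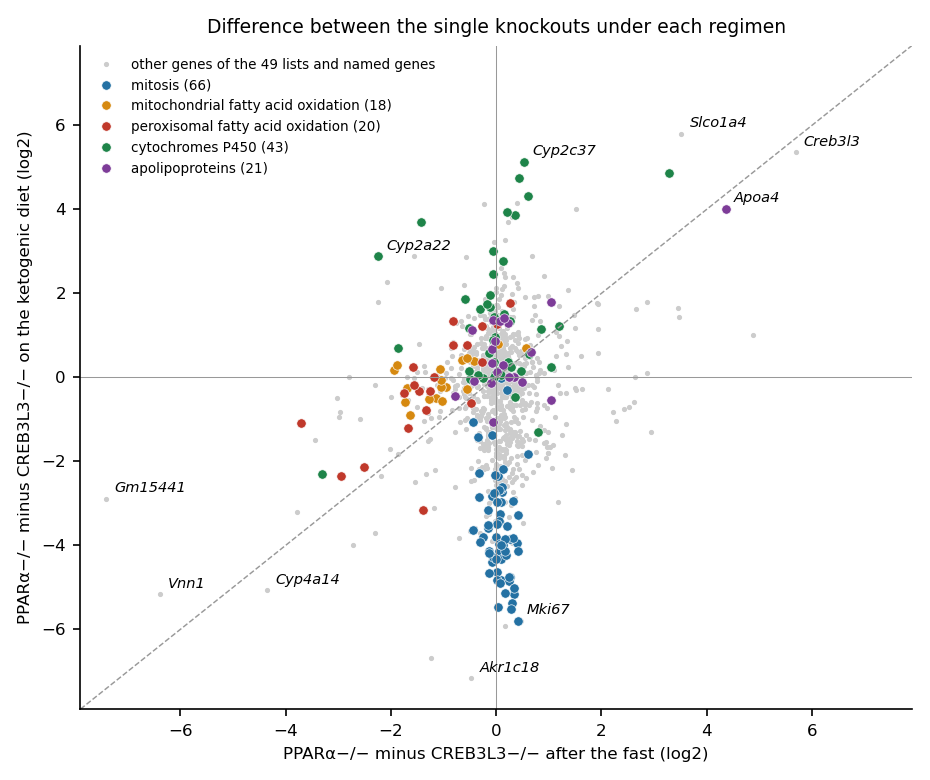
Difference between the single knockouts after the fast (x axis) and on the ketogenic diet (y axis), both PPARα-/- minus CREB3L3-/- in log2 units, for the members of the gene lists and the named genes; the dashed line marks equal differences and colours mark 5 lists. Mitosis genes fall along the vertical axis, as with Mki67 at 0.41 after the fast and -5.79 on the diet, while Vnn1, Cyp4a14, Apoa4 and Creb3l3 keep their side under both regimens.

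Cell division genes were 5 of the 8 largest negative interactions. Of the 66 mitosis genes, 63 had a more negative difference on the diet by the interaction test, with Mki67 at -6.2 (SE 0.56, adjusted p = 9.1e-09), Top2a at -5.79, Hmmr at -5.67, Ccnb2 at -5.50 and Ccna2 at -5.49. After the fast none of the 66 was called in either direction, where the median difference was 0.06 and 1 gene was higher and 2 lower at an unadjusted limma P under 0.05. Akr1c18 had the largest interaction (-6.68 (SE 0.45, adjusted p = 8e-11)), with a fasted difference of -0.48, followed by D17H6S56E-5 and Cdh17 (-6.28 and -6.08). Of macrophage markers 25 of 27 and of stellate cell and collagen genes 25 of 36 had a more negative difference on the diet.

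In the opposite direction, the largest interactions belonged to hepatocyte enzymes, some of which had the opposite sign after the fast. Cyp2a22 read 7.11, 7.98 and 7.80 in PPARα-/- and 2.88, 5.28, 4.72 and 6.08 in CREB3L3-/- livers on the diet, a difference of 2.89 (SE 0.55, adjusted p = 0.00019), but -2.24 after the fast, and the interaction was 5.13 (SE 0.78, adjusted p = 2.1e-05). Cyp2c38 read 7.53, 7.71 and 7.62 against 6.52, 3.24, 2.78 and 3.14 and went from -1.42 after the fast, which was not called, to 3.70 on the diet (5.13 (SE 1.01, adjusted p = 0.00048)). The carboxylesterases Ces1d and Ces1e, which hydrolyse lipid and drug esters, had differences of 2.27 and 2.89 on the diet against -2.07 and -1.56 after the fast, with interactions of 4.34 and 4.45. They too are close paralogs of each other. Rdh16, a retinol dehydrogenase, went from -2.25 to 1.80 (SE 0.35, adjusted p = 0.00026) (interaction 4.05). Gm15441, an antisense transcript at the Txnip locus that responds to PPARα, was lower in PPARα-/- livers under both regimens, with differences of -7.42 after the fast and -2.89 (SE 0.49, adjusted p = 4.6e-05) on the diet, and its interaction of 4.53 is a smaller deficit on the diet.

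Some differences were present under both regimens with no call by the interaction test. Creb3l3 differed by 5.69 after the fast and 5.37 on the diet, and Apoa4 by 4.36 and 4.02. Cyp4a14 had interaction -0.72 and Elovl2 0.00, neither called, and Acsl5, which activates long chain fatty acids, differed by -1.26 and -1.46 (interaction -0.20). The absence of a call does not show that these differences were equal under the 2 regimens.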

How the data were processed

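The deposited table held log2 intensities, which the authors obtained from Affymetrix Mouse Gene 1.1 ST arrays by robust multichip averaging (RMA, in AffyPLM; version not given in the sources used here), 1 array per liver. The study's methods name probe sets remapped to Entrez genes, whereas the rows carry the manufacturer's transcript cluster identifiers, so the definition of the deposited probe sets is taken from those identifiers. Groups were taken from the sample labels. RMA shrinks differences near background, and precision is limited by the 3 and 4 arrays compared. Probe sets were named through the platform annotation and Entrez identifiers in RefSeq: 21218 had 1 gene symbol, 1881 several and 12457 none, and the latter 2 kinds were left out of counts. A linear model with 8 groups and an intensity trend was fitted to all 30 arrays (limma 3.58.1 in R 4.3.3; 22 residual degrees of freedom), as the study's methods used an intensity-based moderated test, with their threshold of P under 0.001 beside a fold beyond 1.2. Contrasts were the 2 single knockouts on the diet, the same after the fast, their difference (interaction), and each single and the combined knockout against its reference. On simulated data, 80% of probe sets changed by 1 log2 unit were called. Among the 35556 tested, changed ones included, 41 unchanged ones were called. The simulated noise was independent and equal in all groups, so these figures do not cover the unequal spread of the real livers.

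Of 49 gene lists, 1141 memberships matched a measured gene and 135 did not and are not reported here. A list gene was read on its brightest probe set. Genes were named by a rule: the 12 largest changes in each direction without overlap, up to 5 members of each list by P, the deleted genes and up to 8 interactions in each direction. Abca1, Abcc4, Acsm5, Acss2, Alb, Amacr, Apoc2, Cdkn1a, Cfb, Cidea, Cidec, Clec4f, Epcam, Etfa, Fabp2, Fgf21, Glud1, Glul, Hacl1, Hilpda, Hnf4a, Hspa5, Il6ra, Ldha, Mlycd, Orm3, Pdk4, Pecr, Pfkl, Pgam1, Scp2, Acadm and Hsd17b10 lie outside it and were chosen after their values were seen. The comparison, lists and rule were chosen with earlier results of these data known. Figures used matplotlib 3.10.9. Alternatives were other normalisations, filters, models, thresholds and sample subsets.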

Additional observations from a re-analysis of the deposited data

Results flagged for a closer look

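The CREB3L3-/- livers on the diet were examined for each of the 261 named genes, and chance flags about 1 in 20 such groups. About as many as chance would give were flagged, namely 12 genes with 1 CREB3L3-/- liver far from the other 3. Liver 1 was apart in 7 of them: Cyp2c29 was 8.91 there (others 5.70 to 5.85), Cyp2c38 6.52 (2.78 to 3.24), Rdh16 6.37 (4.14 to 4.5), Igfbp2 9.50 (7.25 to 7.46), Afp 9.20 (10.91 to 11.22), Kif4 5.90 (7.11 to 7.31) and Loxl2 7.58 (8.35 to 8.39). Without that liver, the differences were 5.53 for Cyp2c29, 2.74 for Igfbp2, -5.51 for Afp, -5.08 for Kif4 and -3.23 for Loxl2. A dimmer probe set of Loxl2 gave 0.29 over all livers and was not called. Liver 2 was apart for Lpl at 8.73 (8.27 to 8.31), Tap1 at 7.68 (7.06 to 7.07) and Ahcy at 10.95 (11.33 to 11.39), liver 3 for Bdh1 at 8.98 (9.50 to 9.58), and liver 4 for Slc25a20 at 10.07 (9.48 to 9.53).

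The difference between the single knockouts itself differed between the diet and the fast in 3480 probe sets by limma's interaction test. The largest negative interactions were -6.68 for Akr1c18, -6.28 for D17H6S56E-5, -6.20 for Mki67, -6.08 for Cdh17, -5.79 for Top2a, -5.67 for Hmmr, -5.50 for Ccnb2 and -5.49 for Ccna2. The largest positive ones were 5.13 for Cyp2a22 and Cyp2c38, 4.61 for Cyp2c37, 4.53 for Gm15441, 4.45 for Ces1e, 4.34 for Ces1d, 4.32 for Cyp2c29 and 4.05 for Rdh16.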

How the results depend on the processing

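No named gene that was called changed direction under any alternative. Genes that were not called could, as Acat1 did without CREB3L3-/- liver 1. The count of 4669 probe sets was 2672 with the 7 arrays alone (935 higher, 1737 lower), 1924 at a fold of 2 (556 higher, 1368 lower), and at an adjusted p under 0.05 it was 6564, of which 2947 were higher. The interaction count of 3480 was 2046 at a fold of 2 (629 higher) and 5290 at an adjusted p under 0.05 (2291 higher). Leaving out 1 liver at a time gave 3806 to 4945 probe sets (1506 to 2038 higher, 2300 to 2907 lower), and 2935 to 3810 interactions (1137 to 1537 higher, 1798 to 2273 lower). Of the 255 named probe sets 219 were called. Of these, 42 lost their call with the 7 arrays alone, 12 with the 15 ketogenic arrays and up to 14 without 1 liver. The 16 named interactions kept theirs in each alternative that tested them. Median centring gave 45.6% of calls as higher and quantile normalisation 44.6%, against 41.7%; the median of all probe sets was then 0.11 and 0.04, against 0.08. Deviations from the group means correlated at 0.10, 0.02 and 0.05 between livers with the same replicate number on the diet. Between livers with different numbers the correlations were -0.08 to 0.05. So few pairs cannot show whether the numbers pair the livers. With the replicate number as a block, 4608 probe sets and 3459 interactions were called. Levels near the array medians lie close to background, where differences are compressed.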
